A study of Mus musculus with 12 samples.

Results

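The response of female (XX) hypothalamic neurospheres to dexamethasone was examined across 10680 of the 40597 loci in the deposited expression table. These were the loci annotated as protein-coding alone whose 6 female libraries averaged 1 FPKM or more, with no female group listed wholly at 0. FPKM is the abundance of sequenced fragments scaled by transcript length and library size. Neurospheres are free-floating clusters of neural stem and progenitor cells, here grown from the dissociated hypothalamus of wild-type C57Bl/6 mouse fetuses at embryonic day 14.5. The 3 female dexamethasone libraries came from cultures given 100 nM of this synthetic glucocorticoid for 4 hours, and the 3 female vehicle libraries from cultures given ethanol alone. All cultures were at the third passage, and 3 male libraries under each treatment complete the 12 libraries of the study. Dexamethasone and vehicle libraries of a sex carry matching replicate numbers, which were used as pairs. The labels call the replicates biological without stating whether they came from separate litters, so p-values here weigh differences against the spread of these libraries only, which may be technical. Of the 21337 protein-coding loci, 10684 reached the mean of 1 FPKM, and 4 of those were left out for a female group at 0. Just inside this limit were Gm13251 (1.0007 FPKM), Lama1 (1.002) and Ly6e (1.002), and just outside were Zfp784 (0.9992), Muc1 (0.998) and Gm10518 (0.998).

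Glucocorticoids act through the glucocorticoid receptor, encoded by Nr3c1, a nuclear receptor held in the cytoplasm by the HSP90 chaperone machinery until hormone binds. The bound receptor enters the nucleus, where it attaches as a pair to a short palindromic DNA element or joins other transcription factors, and raises or lowers transcription. Among its long-known targets are Fkbp5 and Tsc22d3, whose products restrain the receptor itself or inflammatory signalling, and the clock gene Per1. In the fetal brain glucocorticoids have been reported to slow the division of neural progenitors.

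Each female library had between 14068 and 14826 loci above 1 FPKM, and its protein-coding loci summed to between 397412 and 453923 FPKM. The absolute depth is unknown, since FPKM keep no counts. Sex labels were checked with the locus that joins Xist, the noncoding RNA of X inactivation, to other entries. Vehicle libraries 1, 2 and 3 of the females held 328, 289.9 and 231 FPKM of it, and their dexamethasone libraries 266, 202 and 136 FPKM, against at most 14.1 FPKM in a male library. Ddx3y, a gene on the Y chromosome, was at most 0.0397 FPKM in a female library and at least 16.6 FPKM in a male one. Neural stem cell genes were abundant: Fabp7, the brain lipid-binding protein that marks radial glia, averaged 3735 ± 621 FPKM (SD, n = 3) in the female vehicle group, and Vim, an intermediate filament gene of progenitors, 2401 ± 322 FPKM. Of 45 factors that pattern the hypothalamus and its neighbours, 16 were among the loci studied and 27 lay under 1 FPKM. The hypothalamic factors Nkx2-1 (0.0201 FPKM on average), Rax (0.00667), Six6 (0.00214), Otp (0.05) and Sim1 (0.00806) were close to 0, while Foxd1, Lhx2 and Otx2 passed the limit.

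Dexamethasone raised more protein-coding genes than it lowered, and the rises were larger. At an adjusted p under 0.05 (limma, with the replicate pairs as a block), 121 genes rose and 48 fell, which is 1.58% of the 10680 loci tested here, 1.13% higher and 0.449% lower. Over all 14951 loci of any kind in the fit the share was 1.27%, 0.876% higher and 0.395% lower. All 169 moved the same way in each of the 3 pairs. The 3 dexamethasone values lay above all 3 vehicle values for 113 of the 121 rises, and below them for 34 of the 48 falls. Such separation was seen upwards for 8.0% and downwards for 6.03% of all 10680 loci. The rises had a median log2 fold change of 1.01, from 0.32 to 4.85, and the falls a median of -0.56, from -0.33 to -1.40. Changes of at least 1 on this scale numbered 62 rises and 4 falls, and changes of at least 2 numbered 16 rises and 0 falls. The 121 rises had medians of 1.02, 0.95 and 1.01 in pairs 1, 2 and 3, and the 48 falls -0.59, -0.59 and -0.55. The paired test favours loci whose pairs agree, so the shared direction and similar medians of called genes are not independent evidence. The median over all 10680 loci was 0.00 on the same scale. Fold changes were taken on log2(FPKM + 1), where adding 1 shrinks the change of genes with low FPKM.

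Of the 121 rises, 14 had a vehicle mean under 1 FPKM and passed the limit through their dexamethasone values alone, so a difference in them was a condition of entry. Fam107a, Zbtb16, Hspb1, Ptk2b, Hif3a, Cftr and Ctgf are among these 14. When both groups had to average at least 1 FPKM, an alternative added after the data were seen, 97 rises and 35 falls were called among 10473 loci. In bulk RNA, fewer cells of a type and less RNA per cell cannot be told apart.

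The number of calls differed between alternatives. The spread in the fit was estimated from the female and the male pairs together. Without the replicate block 70 loci were called (65 higher, 5 lower), 63 of them among the 169, and a fit on the female libraries alone called 11. Leaving out female pair 1, 2 or 3 left 9, 19 or 6 calls, and leaving out male pair 1, 2 or 3 left 95, 45 or 38. Fkbp5, Klf9, Per1 and Chst2 were called in every one of the 17 alternatives, and every other call was lost in at least one of them. No fold change of the 169 changed sign when a pair was left out. This outcome was fixed beforehand, because all 169 moved the same way in each of the 3 female pairs. With protein-coding loci alone in the fit, which changes both the variance prior and the adjustment, 375 were called (236 higher, 139 lower), and with no limit on low values 80 were (68 higher, 12 lower).

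**Figure D1:**
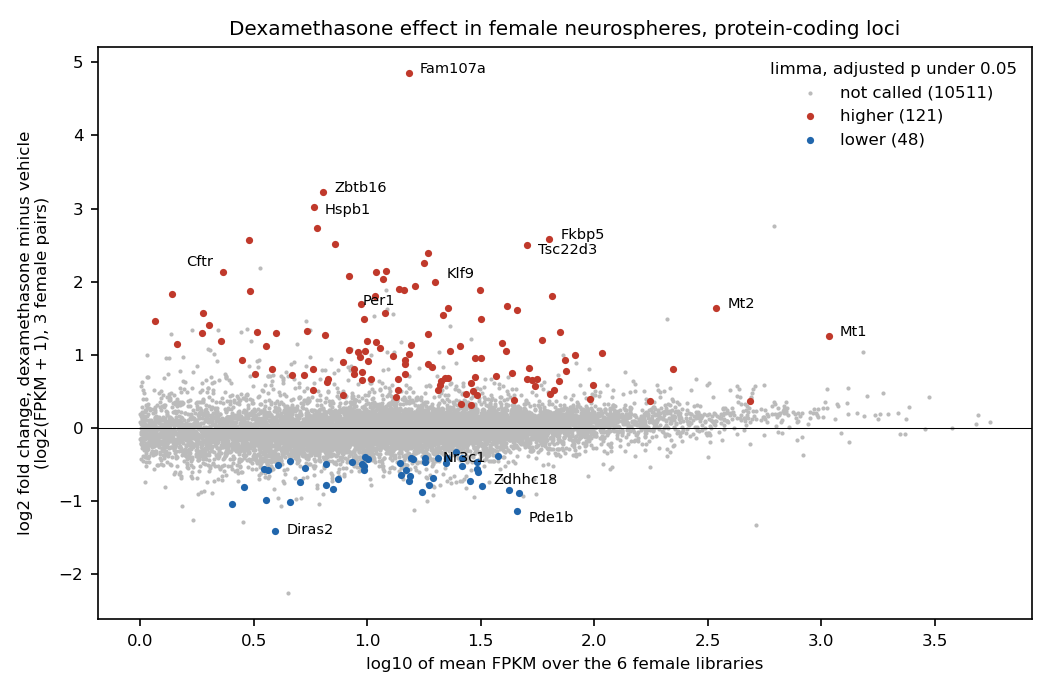
Each point is one protein-coding locus, placed by the log10 of its mean FPKM over the 6 female libraries (horizontal) and its log2 fold change, dexamethasone minus vehicle (vertical). Red points are the 121 loci called higher and blue points the 48 called lower. The rises reach 4.85 (Fam107a) and the falls -1.40 (Diras2).

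Known glucocorticoid-induced genes held many of the rises. Of 36 such genes listed, 30 were among the loci tested, and 17 of them rose and 0 fell, against 1.13% higher and 0.449% lower over all loci, with a median log2 fold change of 1.41 against 0.00 for all loci. In 25 of the 30 the value was higher in all 3 pairs, as it was for 23.1% of all loci. The count of 17 became 4, 7 and 3 without female pair 1, 2 and 3, became 6 with the female libraries alone, and became 9 without male pair 2 or 3. Fam107a, Zbtb16, Ptk2b and Hif3a, among the 17, and the uncalled Gjb6 had vehicle means under 1 FPKM. They passed the limit through their dexamethasone values alone, so a difference in them was a condition of entry. The list gathers genes that earlier work and earlier results of these same data had connected with glucocorticoids, so its direction is not independent evidence.

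Fkbp5 rose while the gene of the receptor it restrains was not called. Nr3c1 stood at 21.5, 20.2 and 19.3 FPKM in the vehicle libraries and at 20.8, 19.1 and 14.5 FPKM under dexamethasone, overlapping groups with a log2 fold change of -0.17 (SE 0.093, limma adjusted p = 0.403). Fkbp5, the HSP90 co-chaperone that lowers the receptor's affinity for hormone (chromosome 17, 28399094 to 28517527), was at 15.7, 15.6 and 21 FPKM in vehicle libraries 1, 2 and 3. Under dexamethasone it was at 111, 96.0 and 121 FPKM, so that every treated library lay above every vehicle library, and its mean rose 6.27-fold (limma log2 fold change 2.59, SE 0.12, adjusted p = 0.00254). In the list of the receptor, its co-regulators and its chaperones 0 of 19 genes were called by limma, 0 had an unadjusted p under 0.05, and log2 fold changes ran from -0.20 to 0.18. Among all 10680 loci 1.58% were called and 2106 had an unadjusted p under 0.05. Hsp90ab1, the constitutive cytosolic HSP90, averaged 1245 ± 50.5 FPKM with vehicle and 1188 ± 108 FPKM with dexamethasone (SD, n = 3). Below, a pair of means joined by the word against, or by from and to, gives vehicle first and dexamethasone second, each with the SD of 3 libraries. Gene positions are on GRCm38, from GENCODE M21.

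The genes that follow encode transcription regulators that rose. Tsc22d3 encodes GILZ, a leucine zipper protein that restrains AP-1 and NF-kB (chromosome X, 140539528 to 140600659). It went from 14.1, 16 and 12.6 FPKM in the vehicle libraries to 108, 85.1 and 66.0 FPKM, with no overlap (limma log2 fold change 2.5, SE 0.26, adjusted p = 0.0221). Zbtb16, a BTB zinc finger repressor also called PLZF (chromosome 9, 48654297 to 48836222), was below 1 FPKM in each vehicle library, at 0.300, 0.618 and 0.364 FPKM. With dexamethasone it reached 14.2, 10.1 and 12.9 FPKM (log2 fold change 3.22, SE 0.22, adjusted p = 0.0075). Hif3a, a hypoxia-inducible factor subunit that can oppose its relatives, was nearly silent in vehicle libraries (0.0509, 0.422 and 0.0378 FPKM). Its treated values were close to one another at 5.48, 6.07 and 6.09 FPKM (log2 fold change 2.57, SE 0.17, adjusted p = 0.00736). Bcl6, another BTB zinc finger repressor, rose from 2.66 ± 0.349 to 8.19 ± 1.37 FPKM (log2 fold change 1.32, SE 0.16, adjusted p = 0.0343).

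Klf9, a Krüppel-like factor known as a glucocorticoid and thyroid hormone target (chromosome 19, 23141226 to 23168134), rose by a similar amount in each pair. Its vehicle libraries stood at 7.99, 6.73 and 7.32 FPKM and its dexamethasone libraries at 35, 31.6 and 30.7 FPKM (limma log2 fold change 2.00, SE 0.086, adjusted p = 0.00222). Klf13, its close relative, rose from 7.87, 11.0 and 9.43 to 20.7, 22.5 and 22.4 FPKM (log2 fold change 1.14, SE 0.088, adjusted p = 0.0111). Of 16 Krüppel-like and C/EBP factors tested, these 2 rose and 0 fell, with a list median of -0.04. The most abundant uncalled members were Klf10 at 59.1 ± 18.9 against 46.2 ± 9.86 FPKM and Klf6 at 30.5 ± 7.62 against 30.1 ± 3.35 FPKM.

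The period genes Per1 and Per2 rose, while no other circadian clock gene tested was called. Per1 (chromosome 11, 69095217 to 69109960) stood at 5.44, 5.13 and 6.16 FPKM with vehicle and 21.7, 20.7 and 27.7 FPKM with dexamethasone (limma log2 fold change 1.88, SE 0.072, adjusted p = 0.00177). Every treated library was above every vehicle library. Per2 went from 2.49, 1.89 and 3.09 to 4.62, 4.41 and 6.31 FPKM (log2 fold change 0.81, SE 0.11, adjusted p = 0.0474), again without overlap, though its call was lost without the replicate block (adjusted p = 0.185). These were 2 of 20 clock genes, whose median log2 fold change was 0.02. The clock kinases Csnk1d and Csnk1e, the most abundant uncalled members, averaged 71.7 ± 0.291 against 61.5 ± 4.02 FPKM and 60.6 ± 1.99 against 63.6 ± 8.45 FPKM.

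The other called members of the glucocorticoid-induced list are described below with their families, apart from these. Mertk, a receptor kinase that drives the clearing of dying cells, rose from 6.75, 3.60 and 5.54 to 24.8, 21.8 and 19.8 FPKM (limma log2 fold change 1.91, SE 0.20, adjusted p = 0.0221). Arrdc2, an arrestin-domain protein, rose from 1.87, 2.22 and 1.52 to 5.33, 5.93 and 4.53 FPKM (log2 fold change 1.13, SE 0.16, adjusted p = 0.0474), and neither had overlapping groups. Without the replicate block the adjusted p was 0.0087 for Mertk and 0.0453 for Arrdc2. Of the uncalled members, Sgk1, a kinase that regulates ion transport, stood at 25.2, 14.8 and 26.5 FPKM with vehicle and 20.8, 16.7 and 21.5 FPKM with dexamethasone (log2 fold change -0.13, adjusted p = 0.654). Dusp1, a phosphatase that switches off MAP kinases, stood at 7.32, 5.99 and 9.37 FPKM with vehicle and 9.79, 9.33 and 11.0 FPKM with dexamethasone (0.38, adjusted p = 0.129). Pdk4, a brake on pyruvate dehydrogenase, stood at 1.83, 2.19 and 0.386 FPKM with vehicle and 7.26, 4.72 and 2.11 FPKM with dexamethasone (1.18, adjusted p = 0.223), and Angptl4, a secreted inhibitor of lipoprotein lipase, at 1.11, 8.24 and 0.255 FPKM with vehicle and 0.623, 0.960 and 0.282 FPKM with dexamethasone (-0.86, adjusted p = 0.391). These 6, Bcl6 and Gjb6 were chosen after their values were seen.

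**Figure D2:**
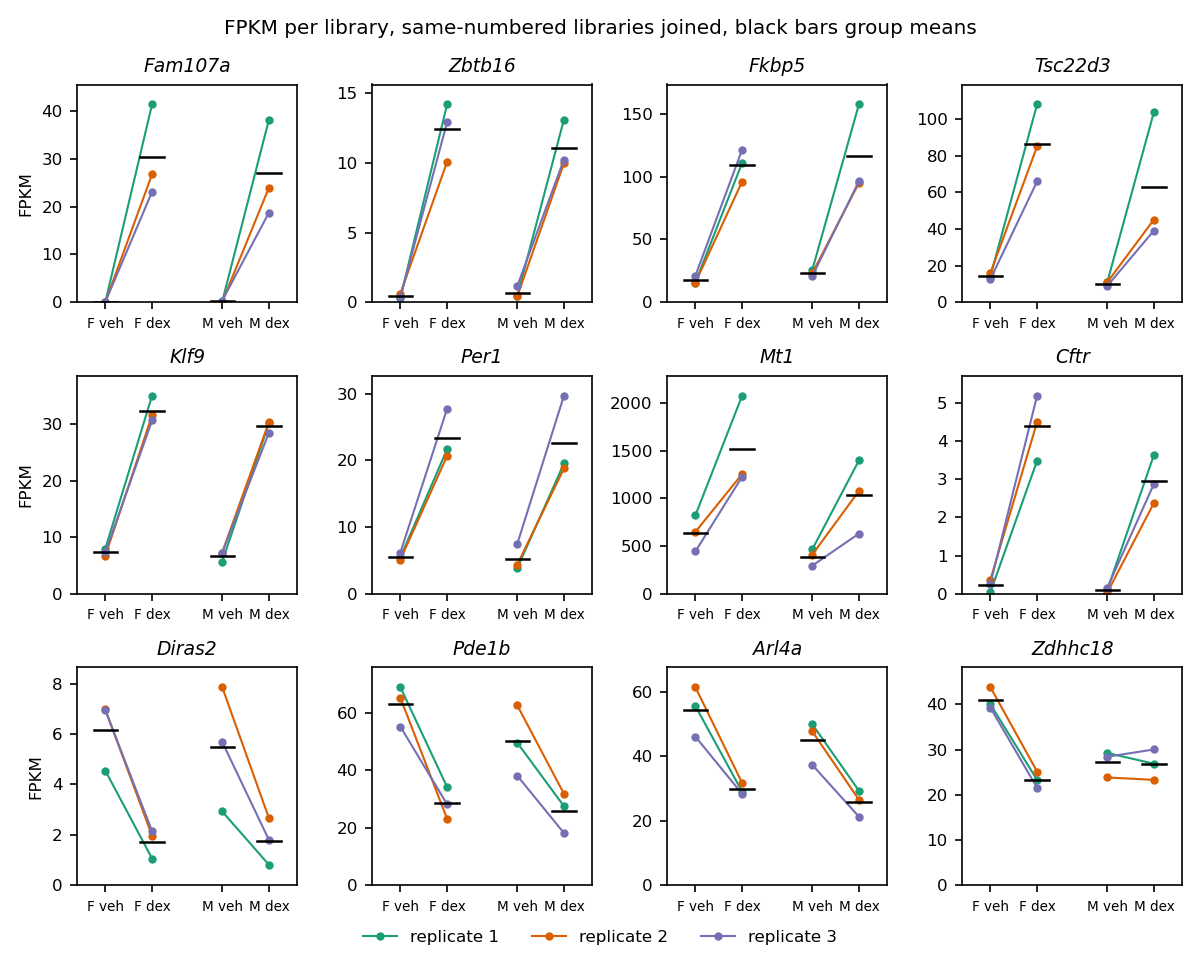
FPKM of 12 genes in every library (vertical, each panel from 0), for female (F) and male (M) cultures with vehicle (veh) or dexamethasone (dex). Lines join libraries of the same replicate number and black bars are group means of 3 libraries. For the first 8 genes all 3 female dexamethasone points lie above the female vehicle points, and for the last 4 below them. Zdhhc18 has a log2 fold change of -0.79 in females and -0.02 in males.

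Focal adhesion genes held the largest rise of all. Focal adhesions are the sites where integrins tie the actin skeleton to the matrix. Fam107a, a stress-induced actin-binding protein also known as DRR1 (chromosome 14, 8296274 to 8318023), was under 0.1 FPKM in each vehicle library (0.0539, 0.0365 and 0.0744 FPKM). With dexamethasone it was at 41.3, 26.7 and 23.1 FPKM in libraries 1, 2 and 3 (limma log2 fold change 4.85, SE 0.27, adjusted p = 0.00395). Ptk2b, the tyrosine kinase PYK2, rose from 0.696, 0.925 and 0.836 to 12.3, 9.51 and 11.7 FPKM (log2 fold change 2.74, SE 0.22, adjusted p = 0.0119). Nedd9, a docking protein for focal adhesion kinases, rose from 5.35, 3.09 and 3.62 to 24.0, 15.8 and 18.7 FPKM (log2 fold change 2.04, SE 0.11, adjusted p = 0.00395). Rhob, a small GTPase of endosomes and actin, rose from 21.5, 18.4 and 16.7 to 77.1, 67.3 and 46.0 FPKM (log2 fold change 1.67, SE 0.23, adjusted p = 0.0453), and none of these 4 genes had overlapping groups. They were the only called members among 41 focal adhesion and actin regulators, whose median was -0.07. The abundant actin regulators Cfl1 and Cdc42 were uncalled, at 759 ± 46.6 against 806 ± 84.0 FPKM and 306 ± 14.2 against 334 ± 14.4 FPKM.

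Promoter sequence was compared with the receptor's palindrome, which reads GNACA, then 3 bases of any kind, then TGTNC, where N is any base. Its reverse complement has the same form, so one search covers both strands. RefSeq windows on GRCm38.p6, from 250 bases before to 50 bases after a gene's start, matched 97 of the 121 rises, 38 of the 48 falls and 8006 member genes. The motif occurred in windows of 3 rises (3.09%: Fam107a, Map7d2 and Mt1), 0 falls, 26 member genes (0.325%) and 145 of 27025 genes overall (0.537%). The longer form AGAACA, 3 bases of any kind and TGTTCT, whose matches are also matches of the first, was in windows of 0 rises, 0 falls, 1 member gene (0.0125%) and 3 genes overall (0.0111%). A match is a description of letters and not a measured binding site. The 3 matches are shown 5′ to 3′ on the gene's strand with the motif in capitals, because they are the motif-bearing promoters among the genes that rose. The stretches of Mt1 (chr8:94178839-94179088, plus strand) and Fam107a (chr14:8309780-8310029, minus strand, one of 3 windows of that gene) are the 250 bases before the start. Both Fam107a and Map7d2 have several annotated starts, and their windows shown here lie inside the gene's full span. The motif begins 94 bases before the start of Mt1 and 118 bases before that of Fam107a. For Map7d2, a microtubule-binding protein, 25 bases around the motif, from one of its 2 windows, are given (chrX:159459129-159459153, plus strand), and the motif begins at base 11 of the transcript from that start.
Mt1: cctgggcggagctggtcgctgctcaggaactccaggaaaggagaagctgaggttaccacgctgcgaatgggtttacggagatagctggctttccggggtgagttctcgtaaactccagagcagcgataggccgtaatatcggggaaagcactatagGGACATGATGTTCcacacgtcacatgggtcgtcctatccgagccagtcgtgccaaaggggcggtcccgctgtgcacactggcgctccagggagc
Fam107a: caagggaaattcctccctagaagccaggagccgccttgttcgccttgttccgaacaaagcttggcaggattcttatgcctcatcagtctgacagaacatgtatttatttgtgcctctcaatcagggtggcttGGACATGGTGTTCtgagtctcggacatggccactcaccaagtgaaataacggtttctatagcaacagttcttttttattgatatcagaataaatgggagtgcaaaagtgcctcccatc
Map7d2: aggacaGGACACAGTGTTCacagtc

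Metallothioneins, small cysteine-rich proteins that bind zinc and copper, rose from high levels. Mt1, whose promoter is printed above (chromosome 8, 94179082 to 94180327), stood at 820.0, 648 and 442 FPKM in vehicle libraries 1, 2 and 3 and at 2075, 1253 and 1225 FPKM with dexamethasone (limma log2 fold change 1.25, SE 0.14, adjusted p = 0.0257). Mt2, its neighbour on the chromosome, stood at 237, 168 and 98.4 FPKM with vehicle and 782, 381 and 401 FPKM with dexamethasone (log2 fold change 1.64, SE 0.17, adjusted p = 0.0229), and neither gene had overlapping groups. Mt3, the brain metallothionein, stood at 197, 122 and 161 FPKM with vehicle and 348, 187 and 318 FPKM with dexamethasone (log2 fold change 0.81, SE 0.11, adjusted p = 0.0437), where treated library 2 fell inside the vehicle range although all 3 pairs rose. None of the 3 was called without the replicate block (adjusted p = 0.264, 0.339 and 0.63). Mt1 and Mt2 are closely similar in sequence, so fragments may be shared between them. These 3 were the only calls among 28 metallothionein, zinc and redox genes (median 0.00). Txn1 and Prdx1, the thioredoxin and peroxiredoxin genes, were uncalled at 855 ± 154 against 900.0 ± 252 FPKM and 317 ± 21.9 against 362 ± 33.6 FPKM.

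A small heat shock gene was the single call in the list of heat shock and unfolded protein genes. The co-chaperone gene Fkbp5, described above, was outside that list. Hspb1, which encodes HSP27, stood at 0.729, 0.230 and 0 FPKM with vehicle, library 3 being listed at 0, and at 20.6, 8.97 and 4.28 FPKM with dexamethasone. The 3 treated libraries lay above the vehicle libraries (limma log2 fold change 3.02, SE 0.41, adjusted p = 0.045), and the call was lost without the replicate block (adjusted p = 0.0693). The other 24 tested genes of the heat shock and unfolded protein list were not called, and the list median was 0.05. The abundant uncalled members Calr and Hspe1 stood at 372 ± 13.4 against 399 ± 40.4 FPKM and 259 ± 37.4 against 302 ± 31.4 FPKM.

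A survival gene rose, and growth-arrest genes moved both ways. Bcl2l1, which encodes the survival protein BCL-XL (chromosome 2, 152780668 to 152831728), had tight groups at 21.3, 23.1 and 21.7 FPKM with vehicle and 67.3, 70.4 and 70.6 FPKM with dexamethasone (limma log2 fold change 1.61, SE 0.084, adjusted p = 0.00395). It was the only call among 23 survival and death genes, and the death effector genes Bax and Bnip3l stood at 111 ± 10.5 against 119 ± 8.01 FPKM and 58.9 ± 27.6 against 65.0 ± 16.4 FPKM. Sesn1, a stress-inducible inhibitor of mTOR complex 1, rose from 14.7, 22.7 and 11.4 to 54.0, 56.8 and 31.2 FPKM (log2 fold change 1.49, SE 0.15, adjusted p = 0.0203). Fbxo32, the muscle-atrophy ubiquitin ligase atrogin-1, fell from 6.47, 5.02 and 3.75 to 2.85, 1.51 and 1.82 FPKM (log2 fold change -0.99, SE 0.12, adjusted p = 0.0311). Rprm, a p53 target that halts the cycle, fell from 20.7, 29.0 and 23.2 to 12.9, 17.2 and 14.3 FPKM (log2 fold change -0.68, SE 0.086, adjusted p = 0.0395). None of these 3 had overlapping groups, but without the replicate block none was called (adjusted p = 0.112, 0.156 and 0.115). Ddit4, another mTOR restraint gene, was uncalled although higher in all 3 pairs, at 77.1, 77.7 and 48.1 FPKM with vehicle and 171, 108 and 86.3 FPKM with dexamethasone (log2 fold change 0.81, SE 0.22, adjusted p = 0.177). The list of 33 growth-arrest and mTOR genes had a median of 0.00, and its abundant member Ccng1 was uncalled at 168 ± 26.4 against 237 ± 6.09 FPKM.

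Cell cycle and replication genes were not called at 4 hours (0 of 46 by limma, 9 at an unadjusted p under 0.05). Over all 10680 loci 1.58% were called and 2106 had an unadjusted p under 0.05, so neither count sets this list apart. Of the 46 genes, 14 were higher in all 3 pairs, where 23.1% of all loci were, and 1 was lower in all 3, where 21.2% were, with log2 fold changes from -0.68 to 0.51 and a median of 0.10. Cdk4, the most abundant, stood at 761, 796 and 723 FPKM with vehicle and 759, 887 and 801 FPKM with dexamethasone (log2 fold change 0.10, SE 0.068, adjusted p = 0.481). Ccnd1, its cyclin partner, stood at 521, 251 and 559 FPKM with vehicle and 412, 279 and 532 FPKM with dexamethasone (log2 fold change -0.09, SE 0.11, adjusted p = 0.705), with overlapping groups in which library 2 was lowest under both treatments. The cyclin-dependent kinase inhibitor Cdkn1a, p21, was likewise uncalled at 69.5, 45.0 and 84.5 FPKM with vehicle and 97.9, 52.7 and 133 FPKM with dexamethasone (log2 fold change 0.45, SE 0.13, adjusted p = 0.189).

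Most genes in the lists of growth factor pathways and MAP kinase feedback were uncalled, with 4 exceptions. Errfi1, a feedback inhibitor that binds the EGF receptor, rose from 5.95, 4.25 and 6.4 to 20.5, 18.8 and 15.7 FPKM (limma log2 fold change 1.57, SE 0.18, adjusted p = 0.0288). Hbegf, a membrane-anchored ligand of that receptor, fell from 70.1, 34.2 and 81.3 to 31.8, 22.6 and 41.2 FPKM (log2 fold change -0.89, SE 0.13, adjusted p = 0.0477), and its groups overlapped because vehicle library 2 was low. Pik3r1, the regulatory subunit of phosphoinositide 3-kinase, rose from 36.2, 60.8 and 57.7 to 82.9, 99.4 and 109 FPKM (log2 fold change 0.93, SE 0.11, adjusted p = 0.0287). Irs1, the insulin receptor substrate, fell in all 3 pairs with overlapping groups, from 12.0, 8.94 and 14.2 to 8.60, 6.20 and 10.7 FPKM (log2 fold change -0.43, SE 0.055, adjusted p = 0.0408). Of these 4 genes, Errfi1 alone was called without the replicate block (adjusted p = 0.678, 0.109 and 0.71 for Hbegf, Pik3r1 and Irs1). In the EGF, FGF and IGF list 1 of 25 genes rose and 2 fell (median -0.12), and in the MAP kinase feedback list Errfi1 was the only call of 18 (median -0.22). The abundant feedback genes Dusp6 (102 ± 38.7 against 139.9 ± 24.9 FPKM) and Spry2 (112 ± 22.3 against 91.8 ± 10.4 FPKM) and the binding proteins Igfbp2 (768 ± 139.5 against 881 ± 96.4 FPKM) and Igfbp3 (195 ± 86.4 against 244 ± 70.4 FPKM) were uncalled.

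Immediate early genes, the fast transcriptional response to growth factors, had the lowest list median, -0.23. Of 23 tested, 12 were lower in all 3 pairs and 4 higher, where 21.2% of all loci were lower and 23.1% higher in all 3, but only 2 passed the test, 1 in each direction. Jun was also listed but not counted, because its locus is joined with the transcript Gm12703. That joined locus was called lower, without overlap (limma log2 fold change -0.60, adjusted p = 0.0195). Ier3, an early gene linked to cell survival, fell from 15.9, 6.93 and 5.61 to 7.46, 3.60 and 3.07 FPKM (limma log2 fold change -0.83, SE 0.12, adjusted p = 0.0473), with vehicle library 1 far above the other two and overlapping groups. Ctgf, a secreted matrix-associated growth factor, rose from 0.618, 0.542 and 0.805 to 3.61, 2.91 and 2.72 FPKM (log2 fold change 1.30, SE 0.18, adjusted p = 0.0473), with no overlap. Neither was called without the replicate block (adjusted p = 0.74 and 0.225). Myc, the proliferation regulator, was lower in each pair and uncalled at 53.9, 34.5 and 49.2 FPKM with vehicle and 32.4, 23.6 and 36.3 FPKM with dexamethasone (log2 fold change -0.56, SE 0.10, adjusted p = 0.0827). Btg2 was uncalled at 42.1 ± 10.3 against 38.6 ± 3.33 FPKM.

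Inflammatory genes were few at these levels. Of 31 NF-kB subunits, inhibitors and targets, 17 were under 1 FPKM and 14 were tested, with 0 calls by limma and 6 at an unadjusted p under 0.05. Such an unadjusted p was found for 2106 of all 10680 loci. Nfkbia, the inhibitor IkB-alpha that glucocorticoids are known to induce, stood at 13.8, 18.6 and 17.6 FPKM with vehicle and 40.8, 47.4 and 33.0 FPKM with dexamethasone. Its groups did not overlap, and its log2 fold change of 1.22 missed the threshold (SE 0.19, limma adjusted p = 0.0629). Chuk, an IkB kinase subunit, averaged 40.1 ± 5.98 against 37.2 ± 1.47 FPKM. Among 20 cytokine and JAK-STAT genes 2 rose: Lifr, the leukaemia inhibitory factor receptor, from 15.7, 17.7 and 15.5 to 26.3, 26.8 and 25.1 FPKM (log2 fold change 0.65, SE 0.082, adjusted p = 0.039), and Pim3, a serine/threonine kinase induced by STATs, from 7.01, 6.38 and 6.39 to 15.5, 13.2 and 11.7 FPKM (log2 fold change 0.92, SE 0.10, adjusted p = 0.0287). Stat3 and Il6st, the shared receptor subunit gp130, were uncalled at 90.7 ± 15.4 against 84.4 ± 10.7 FPKM and 58.1 ± 5.0 against 58.6 ± 9.91 FPKM.

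Chemokine and guidance genes had a single call each way. Of 26 tested, 16 were lower in all 3 pairs and 1 was higher, where 21.2% of all loci were lower and 23.1% higher in all 3, with a median of -0.19. Ackr3, a receptor that scavenges the chemokine CXCL12, rose from 3.44, 5.07 and 3.19 to 7.15, 9.58 and 6.11 FPKM (limma log2 fold change 0.81, SE 0.11, adjusted p = 0.0437). Sema6d, a transmembrane guidance protein, fell from 37.5, 29.0 and 45.4 to 24.6, 19.1 and 29.1 FPKM (log2 fold change -0.60, SE 0.046, adjusted p = 0.0108), where treated library 3 slightly exceeded vehicle library 2. Both calls were lost without the replicate block (adjusted p = 0.446 and 0.66). Cx3cl1, the membrane-bound chemokine fractalkine, was uncalled at 27.1, 37.3 and 34.5 FPKM with vehicle and 14.5, 23.1 and 23.3 FPKM with dexamethasone (log2 fold change -0.69, SE 0.13, adjusted p = 0.09), and Plxnb2, a semaphorin receptor, at 33.5 ± 4.72 against 32.2 ± 6.93 FPKM.

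In the list of 46 metabolic genes 4 rose and 0 fell (median 0.03). Ada, the adenosine deaminase that turns adenosine into inosine (chromosome 2, 163726584 to 163750239), rose from 1.62, 0.975 and 1.79 to 11.5, 12.1 and 15.3 FPKM (limma log2 fold change 2.51, SE 0.14, adjusted p = 0.00395). Thrsp, a nuclear regulator of lipid synthesis known as Spot 14, rose from 6.41, 6.59 and 2.62 to 47.9, 29.8 and 13.5 FPKM (log2 fold change 2.25, SE 0.23, adjusted p = 0.0214), with library 3 the lowest in both groups. Gpd1, the cytosolic glycerol-3-phosphate dehydrogenase, rose in each pair from 2.63, 10.9 and 4.16 to 7.15, 19.7 and 10.3 FPKM (log2 fold change 1.03, SE 0.12, adjusted p = 0.0313), and its groups overlapped because library 2 was high under both treatments. Lpin1, a phosphatidate phosphatase, rose from 16.7, 27.8 and 19.5 to 35.3, 50.3 and 40.3 FPKM (log2 fold change 0.96, SE 0.12, adjusted p = 0.0362). Ada alone of the 4 was called without the replicate block (adjusted p = 0.112, 0.607 and 0.239 for Thrsp, Gpd1 and Lpin1). The glycolytic genes Aldoc and Ldha were uncalled at 344 ± 66.2 against 510.0 ± 32.7 FPKM and 389.6 ± 156 against 419.6 ± 142 FPKM.

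Among 38 solute carriers 2 rose (median -0.05), and cholesterol synthesis genes were not called. Mfsd2a, which moves lysophosphatidylcholine bearing omega-3 fatty acids across membranes, rose from 3.31, 6.96 and 5.44 to 21.4, 38.4 and 35.4 FPKM (limma log2 fold change 2.39, SE 0.14, adjusted p = 0.00446). Slc25a33, a mitochondrial pyrimidine nucleotide carrier, rose from 5.69, 5.0 and 4.40 to 9.01, 8.15 and 7.64 FPKM (log2 fold change 0.62, SE 0.067, adjusted p = 0.0257), a call lost without the replicate block (adjusted p = 0.138). The glutamate transporter gene Slc1a3 was uncalled at 373 ± 52.5 against 369.6 ± 37.2 FPKM. Of 24 cholesterol synthesis genes 0 were called by limma and 5 had an unadjusted p under 0.05, as had 2106 of all 10680 loci. The list median was 0.09, and its uncalled members include Hmgcs1 at 655 ± 70.8 against 630.1 ± 62.3 FPKM and Sc4mol at 226 ± 25.4 against 287 ± 22.2 FPKM.

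Ion channel genes changed in both directions. Cftr, the cyclic AMP-gated chloride channel gene mutated in cystic fibrosis (chromosome 6, 18170687 to 18322768), was under 0.4 FPKM in each vehicle library (0.0369, 0.360 and 0.262 FPKM). With dexamethasone it stood at 3.48, 4.50 and 5.18 FPKM (limma log2 fold change 2.14, SE 0.14, adjusted p = 0.00736). Kcnn2, a small-conductance calcium-activated potassium channel gene, rose from 2.40, 6.32 and 2.05 to 16.9, 25.6 and 12.5 FPKM (log2 fold change 2.13, SE 0.21, adjusted p = 0.0195). An annotated antisense locus, RP23-304I16.1, overlaps the end of Kcnn2, and no source used here gives the strand setting of the authors' counting. That locus was itself called higher, from 2.06, 4.57 and 1.26 to 11.8, 13.9 and 5.99 FPKM (limma log2 fold change 1.71, adjusted p = 0.0408). Whether fragments are shared between it and Kcnn2 was not tested. Ano6, a calcium-activated lipid scramblase and channel, fell from 29.4, 26.3 and 27.3 to 22.4, 21.2 and 21.8 FPKM (log2 fold change -0.33, SE 0.045, adjusted p = 0.0462). Kcnk3, the acid-sensitive potassium leak channel TASK-1, which was not in the channel list, fell from 3.91, 4.44 and 2.95 to 1.39, 1.58 and 0.980 FPKM (log2 fold change -1.04, SE 0.14, adjusted p = 0.0473). None of these 4 protein-coding genes had overlapping groups, and without the replicate block the calls of Kcnn2, Ano6 and Kcnk3 were lost (adjusted p = 0.0693, 0.189 and 0.266). Of 34 listed potassium and chloride channel genes 2 rose and 1 fell (median -0.02), and Ttyh1 and Clic1 were uncalled at 251 ± 70.2 against 263 ± 30.3 FPKM and 122 ± 12.4 against 123 ± 3.92 FPKM.

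Phosphodiesterases, the enzymes that break down cyclic AMP and cyclic GMP, supplied both calls among 32 cyclic nucleotide and calcium signalling genes. Pde1b, which calcium signals activate (chromosome 15, 103503034 to 103530052), fell from 68.8, 65.2 and 55.1 to 34.1, 23.1 and 28.1 FPKM (limma log2 fold change -1.13, SE 0.11, adjusted p = 0.0197). Pde3a, which cyclic GMP inhibits (chromosome 6, 141249269 to 141507448), fell from 7.19, 5.34 and 6.86 to 2.77, 2.13 and 3.25 FPKM (log2 fold change -1.01, SE 0.090, adjusted p = 0.0169). Every treated library lay below every vehicle library for both, and both calls were lost without the replicate block (adjusted p = 0.0999 and 0.0877). The list median was -0.11, and the abundant member Prkar1a, a regulatory subunit of protein kinase A, was uncalled at 76.6 ± 11.8 against 62.6 ± 10.8 FPKM.

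Small GTPase genes held the deepest fall. Diras2, a Ras-family GTPase of brain (chromosome 13, 52504380 to 52531279), stood at 4.55, 6.98 and 6.95 FPKM with vehicle and 1.06, 1.97 and 2.14 FPKM with dexamethasone (limma log2 fold change -1.40, SE 0.077, adjusted p = 0.00395). Arl4a, an ARF-like GTPase that recruits regulators to the cell membrane (chromosome 12, 40005447 to 40038025), fell from 55.5, 61.4 and 46.0 to 29.0, 31.7 and 28.3 FPKM (log2 fold change -0.84, SE 0.064, adjusted p = 0.0106). Rab8b, a GTPase of membrane traffic, fell from 21.7, 24.1 and 24.9 to 16.8, 17.3 and 18.2 FPKM (log2 fold change -0.41, SE 0.046, adjusted p = 0.0257). None of the 3 had overlapping groups, and Diras2 was not called without the replicate block (adjusted p = 0.189). These were the calls among 23 small GTPase and secretory granule genes (median -0.11), where Rab31 and Cpe were uncalled at 201 ± 9.65 against 232 ± 22.4 FPKM and 211 ± 109 against 216 ± 40.1 FPKM. The highest log2 fold change in this list was that of Arl4d, a relative of Arl4a (1.89, limma adjusted p = 0.0551, uncalled). The small GTPase genes Rhob, described above, and Rhoj were outside this list and were called higher. Arl4d and Rhoj were chosen after their values were seen.

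Stem cell, glial and patterning genes were largely uncalled. Hopx, a homeodomain protein of quiescent stem cells, was the only call of 26 neural stem cell genes, from 9.57, 4.03 and 5.07 to 15.3, 9.31 and 9.16 FPKM (limma log2 fold change 0.80, SE 0.12, adjusted p = 0.0497), with vehicle library 1 inside the treated range. The median of that list was -0.15, and 11 of its genes were lower in all 3 pairs and 3 higher, where 21.2% and 23.1% of all loci were. Lfng, a glycosyltransferase that modifies Notch receptors, rose from 59.6, 46.2 and 57.4 to 120.5, 97.7 and 111 FPKM (log2 fold change 1.00, SE 0.068, adjusted p = 0.0075) as the only call of 20 Notch pathway genes. The receptor gene Notch1 was uncalled at 61.4, 40.5 and 44.8 FPKM with vehicle and 27.3, 74.6 and 55.2 FPKM with dexamethasone, its pairs going both ways, and the Notch target Hes5 at 135 ± 73.6 against 102 ± 27.9 FPKM. Nkx2-2, a homeodomain factor of ventral progenitors and oligodendrocyte precursors, fell in each pair from 11.2, 6.07 and 10.7 to 7.27, 2.68 and 6.75 FPKM (log2 fold change -0.70, SE 0.10, adjusted p = 0.0474), with overlapping groups. It was the only call among 16 oligodendrocyte lineage genes and among 16 patterning factors. Hopx and Nkx2-2 were not called without the replicate block (adjusted p = 0.398 and 0.664). Olig1 (209.6 ± 28.2 against 221 ± 24.7 FPKM), Olig2 (128 ± 10.5 against 129 ± 6.27 FPKM), Pou3f3 (33.9 ± 1.58 against 37.3 ± 1.69 FPKM) and Meis1 (35.9 ± 2.45 against 42.7 ± 0.610 FPKM) were uncalled.

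Of 25 astrocyte genes 0 were called by limma and 9 had an unadjusted p under 0.05, as had 2106 of all 10680 loci. The list had a median of -0.01 and log2 fold changes from -0.70 to 2.18. The highest was that of Gjb6, a gap junction gene of astrocytes, at 1.83, 0.0978 and 0.0684 FPKM with vehicle and 5.48, 3.91 and 8.74 FPKM with dexamethasone, whose pairs were uneven (SE 0.49, adjusted p = 0.127). Apoe, the lipid carrier of astrocytes, varied more between replicates than between treatments, at 1085, 1425 and 381 FPKM with vehicle and 1056, 622 and 413 FPKM with dexamethasone. Cst3, cystatin C, was uncalled at 539 ± 301 against 549 ± 195 FPKM. In the BMP, TGF-beta and Wnt list 1 of 41 genes was called (median -0.10): Fzd9, a Wnt receptor, fell in each pair from 25.3, 23.9 and 13.7 to 19.1, 16.7 and 9.33 FPKM (limma log2 fold change -0.46, SE 0.066, adjusted p = 0.0474), with overlapping groups. Its call was lost without the replicate block (adjusted p = 0.8), and Ctnnb1 and Id3 were uncalled at 377 ± 37.2 against 399 ± 23.1 FPKM and 124 ± 28.2 against 105 ± 13 FPKM. Of 38 matrix and integrin genes 2 rose and 0 fell (median -0.09). Adamts9, a secreted metalloprotease of the matrix, rose from 4.39, 3.08 and 6.63 to 17.0, 11.4 and 15.4 FPKM (log2 fold change 1.48, SE 0.13, adjusted p = 0.0173). Timp4, a metalloprotease inhibitor, rose from 44.7, 31.2 and 35.1 to 78.3, 53.6 and 66.2 FPKM (log2 fold change 0.82, SE 0.060, adjusted p = 0.0102), and neither gene had overlapping groups, though Timp4 was not called without the replicate block (adjusted p = 0.277). Itgb1 and Ncan were uncalled at 201 ± 20.9 against 196 ± 17.0 FPKM and 129 ± 9.71 against 108 ± 15.2 FPKM.

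**Figure D3:**
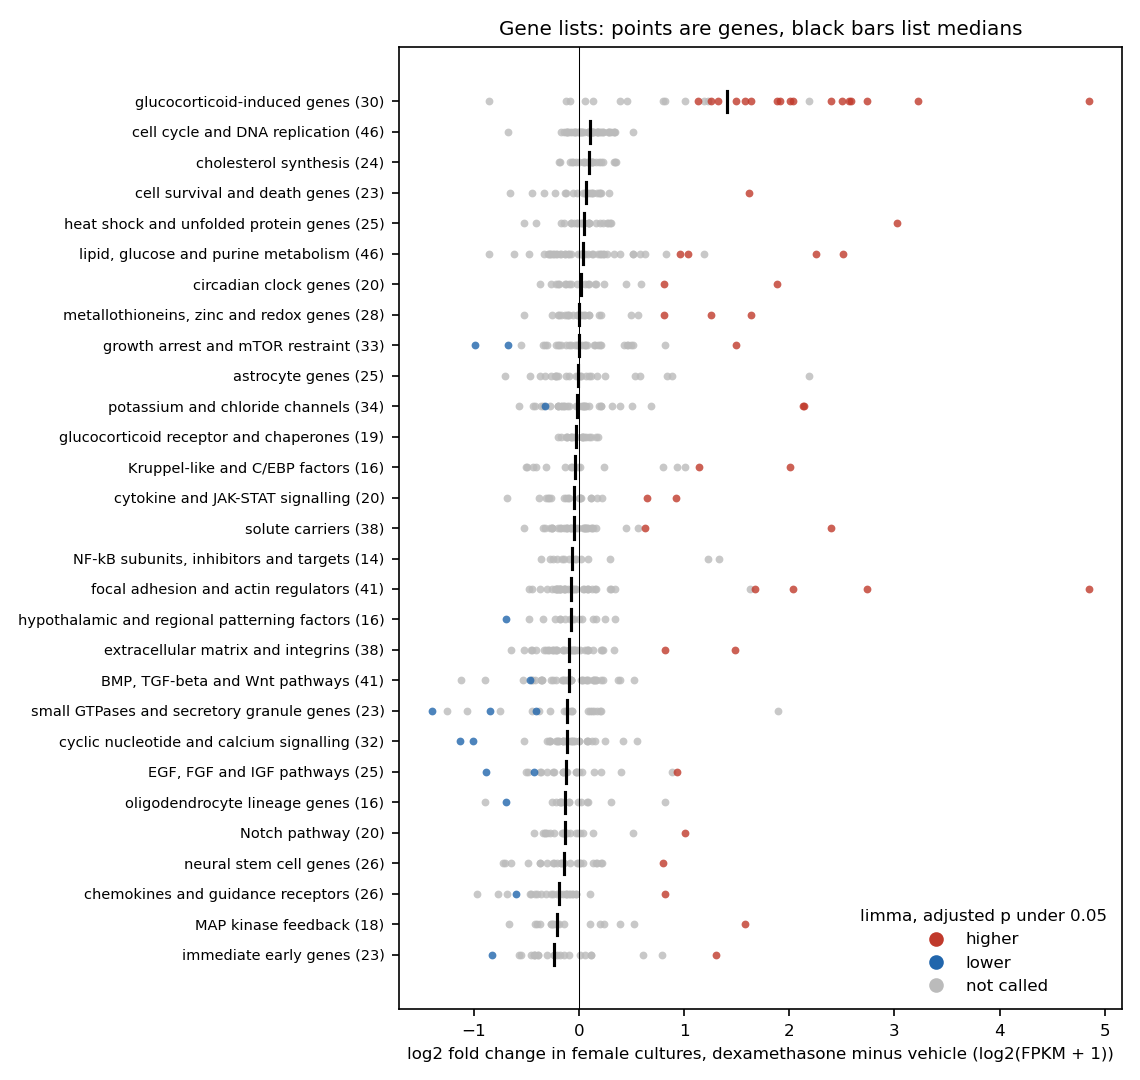
Each point is a gene of one of 29 lists, placed by its log2 fold change in female cultures, with red for genes called higher, blue for genes called lower and grey for the rest. Black bars are list medians and the number of genes tested is in brackets. The glucocorticoid-induced list has a median of 1.41, and the other medians lie between -0.23 and 0.10.

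The 29 lists held 744 of the loci tested, of which 39 rose and 14 fell, and 116 of the 169 called genes were in none of them. Among these, 2 were of the 15 largest rises. Tprn, an actin-associated protein of hair cells, rose from 4.44, 4.73 and 2.60 to 21.4, 19.4 and 20.2 FPKM (limma log2 fold change 2.14, SE 0.20, adjusted p = 0.018). Crip1, a small LIM-domain protein, rose from 2.33, 3.34 and 1.56 to 13.6, 21.4 and 7.54 FPKM (log2 fold change 2.08, SE 0.28, adjusted p = 0.045), with library 2 the highest in both groups and no call without the replicate block (adjusted p = 0.225). Chst2, a carbohydrate sulfotransferase chosen for its stable call, rose from 24.1, 26.1 and 35 to 96.7, 87.4 and 119.8 FPKM (log2 fold change 1.80, SE 0.073, adjusted p = 0.00191).

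Several of the 15 largest falls also lay outside the lists. Zdhhc18, a protein palmitoyltransferase (chromosome 4, 133605299 to 133650154), fell from 40.0, 43.8 and 39.3 to 23.3, 25.1 and 21.5 FPKM (limma log2 fold change -0.79, SE 0.055, adjusted p = 0.0075), with narrow groups well apart. Hdac9, a class IIa histone deacetylase, fell from 6.71, 9.02 and 9.92 to 3.66, 4.18 and 5.94 FPKM (log2 fold change -0.78, SE 0.075, adjusted p = 0.0195). Zfp513, a zinc finger factor, fell from 19.7, 19.4 and 29.4 to 10.2, 9.88 and 16.3 FPKM (log2 fold change -0.87, SE 0.10, adjusted p = 0.032), and in both groups library 3 was the highest. Mfap3l fell from 23.9 ± 8.13 to 13.4 ± 3.58 FPKM and Uaca, a regulator of stress-induced cell death, from 19.2 ± 1.25 to 11.3 ± 1.88 FPKM (log2 fold change -0.78, SE 0.083, adjusted p = 0.0251 for the first and log2 fold change -0.72, SE 0.095, adjusted p = 0.042 for the second). Cd200, a membrane ligand that quiets microglia, fell in each pair with overlapping groups, from 5.25, 9.97 and 4.41 to 2.54, 5.75 and 2.33 FPKM (log2 fold change -0.74, SE 0.10, adjusted p = 0.046). Without the replicate block Zdhhc18 kept its call, while Hdac9, Zfp513, Mfap3l, Uaca and Cd200 did not (adjusted p = 0.263, 0.166, 0.612, 0.139 and 0.66).

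The X chromosome carried calls in both directions. Of 355 loci tested on it, 4 rose and 4 fell, or 2.25%, against 1.58% of all loci, and on the 19 autosomes the share ran from 0.924% (chromosome 3) to 2.85% (chromosome 12). The rises were Tsc22d3, Map7d2 (from 3.49, 6.10 and 3.47 to 19, 17.2 and 15.5 FPKM, log2 fold change 1.80), Ocrl, an inositol phosphatase (0.67), and Prps2, an enzyme of nucleotide synthesis (0.45). The falls were Armcx6 (from 4.25, 4.41 and 3.08 to 1.80, 2.17 and 1.46 FPKM, log2 fold change -0.80), its relative Armcx2 (-0.41), Slitrk2, a synaptic adhesion protein (-0.65), and Ndp, the secreted Wnt-pathway ligand norrin (-0.44). Without the replicate block Prps2, Armcx6, Ndp and Slitrk2 were not called (adjusted p = 0.333, 0.122, 0.17 and 0.704). Limma adjusted p ran from 0.014 (Map7d2) to 0.0493 (Slitrk2) over these 8. The Xist locus was lower under dexamethasone in all 3 pairs and was not called (log2 fold change -0.53, SE 0.38, limma adjusted p = 0.508).

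The male cultures moved the same way as the female ones at these genes. The male libraries share no control with the female ones, although both enter the fit that sets the spread, and the genes were selected on the female values. All 121 rises and all 48 falls had a male fold change of the same sign, and the share of loci with matching signs was 73.8% over all 10680. In all 3 male pairs the sign matched for 119 of the rises and 45 of the falls. The male test called 76 of the rises and 26 of the falls in the same direction, where it called 1.19% of all loci tested (0.796% higher, 0.393% lower), and 0.956% of loci of any kind in the fit (0.622% higher, 0.334% lower). The median male log2 fold change was 0.89 for the rises, against 1.01 in females, and -0.50 for the falls, against -0.56. Fam107a, for example, went from 0.127, 0.0541 and 0.343 to 38.1, 23.9 and 18.7 FPKM in males (log2 fold change 4.52), Klf9 from 5.67, 7.27 and 7.28 to 30.2, 30.4 and 28.5 FPKM (1.99), and Diras2 from 2.93, 7.87 and 5.69 to 0.809, 2.66 and 1.80 FPKM (-1.22).

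The difference between the female and the male effect was tested as an interaction in the same limma fit, and 0 of the 10680 loci (0.0%) were called. Of loci of any kind 0.0334% were (0.0134% with a higher and 0.0201% with a lower female effect). At an unadjusted p under 0.05 there were 303, of which 17 were among the 169 called genes. Without the replicate block and with a pseudocount of 0.1 the count was 1, Lars2 each time (adjusted p = 0.0329 and 0.0418), a locus with a male group listed at 0, for which no fold is given. The smallest interaction p among the called genes was that of Zdhhc18. In males it stood at 29.2, 23.8 and 28.4 FPKM with vehicle and 26.9, 23.3 and 30.0 FPKM with dexamethasone, so that the male vehicle values lay under the female ones and close to the treated values. Its female effect of -0.79 and male effect of -0.02 differed by -0.77 (SE 0.077, adjusted p = 0.208). Tbc1d2b, a protein with a Rab GTPase-activating domain, stood at 7.32, 4.73 and 5.91 FPKM with vehicle and 14.7, 10.6 and 15.2 FPKM with dexamethasone in females and at 4.20, 6.10 and 10.7 and 4.14, 7.94 and 10.7 FPKM in males (difference 0.95, SE 0.14, adjusted p = 1). Rnaseh2c, a subunit of ribonuclease H2, had effects of 0.37 in females and 0.00 in males (difference 0.37, SE 0.076, adjusted p = 1).

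**Figure D4:**
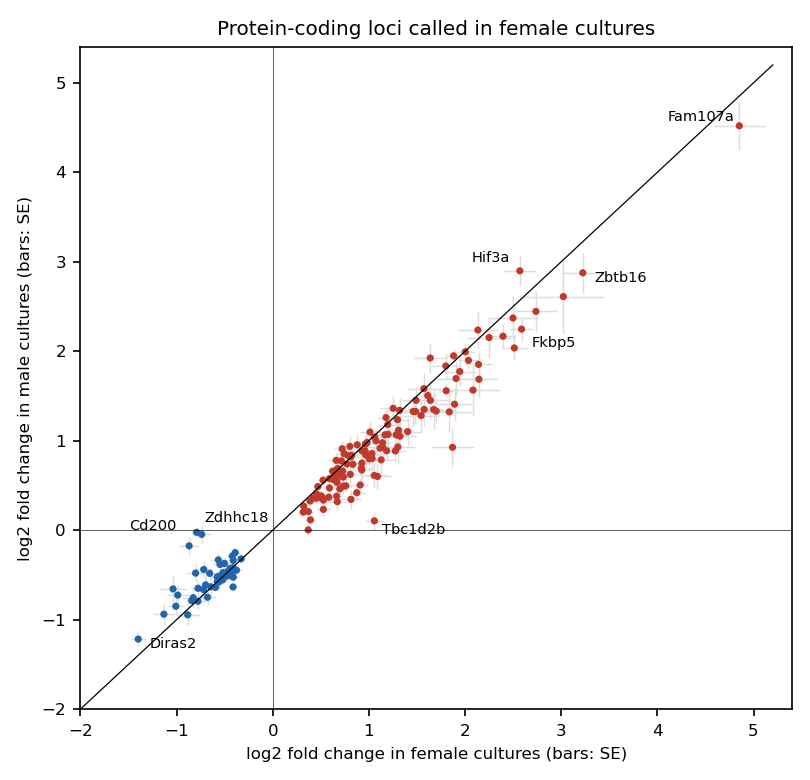
Log2 fold change of dexamethasone against vehicle in female (horizontal) and male (vertical) cultures for the 169 genes called in females, with grey bars for the SE of each and a diagonal line of equal effects. All 121 genes called higher and all 48 called lower have male values of the same sign. Zdhhc18, Cd200 and Tbc1d2b lie near 0 in males.

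Markers of other cell types were not called in any of 8 lists (0 by limma, 1 at an unadjusted p under 0.05, in the mural and fibroblast list). Only markers averaging at least 1 FPKM entered the fit, so the others could not be called. Of all 10680 protein-coding loci studied, 1.58% were called and 2106 had an unadjusted p under 0.05. Of 20 neuronal markers 10 averaged at least 1 FPKM, and the sum over the list was 349 to 452 FPKM in the vehicle libraries and 325 to 435 FPKM in the dexamethasone libraries. Microglial markers numbered 2 of 15 at that level (sums of 12.4 to 19.3 against 11.9 to 18.6 FPKM), with C1qa, C1qb and C1qc at 0 in all 6 libraries. Endothelial markers numbered 3 of 14 (48.6 to 56.7 against 45.9 to 63.3 FPKM), and mural and fibroblast markers 4 of 15 (55.9 to 71.4 against 61.7 to 68.3 FPKM), with Lum at 0. Ependymal markers numbered 2 of 11, and their sum was lower with dexamethasone in the 3 libraries (7.36 to 8.13 FPKM) than with vehicle (9.11 to 10.1 FPKM), with Tmem212 and Pifo at 0. Pituitary markers numbered 1 of 11, and their sum was also lower with dexamethasone (2.18 to 2.63 FPKM) than with vehicle (2.69 to 3.12 FPKM). Erythroid markers numbered 0 of 7 and telencephalic markers 1 of 11. Whether a shift in cell makeup has a part in any change above was not tested.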

How the data were processed

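RNA of 12 neurosphere cultures (4 groups of 3) was sequenced as stranded total RNA. The authors deposited 1 table of FPKM per locus and library. The submitters' processing notes name TopHat2 2.0.9, Cufflinks 2.2.1, Cuffdiff 2.2.1 and the GRCm38 build; no source used here gives the annotation release or strand setting. Totals of reads cannot be had from FPKM, so depth is unknown. Here log2(FPKM + 1) was fitted with limma 3.58.1 (R 4.3.3) over all 12 libraries and 14951 loci averaging 1 FPKM or more in the 6 female libraries, with the replicate number within each sex as a block (4 residual degrees of freedom) and Benjamini-Hochberg adjustment over all loci. The labels give the numbers but not what they share. Deviations of same-numbered female libraries from their group means correlated at 0.43, 0.345 and 0.574 over 10680 loci. Each was over the 0.1 set as the condition for keeping the pairs. Those of other numbers were at -0.108 or lower, but deviations within a group cancel out, which by itself pulls these values down. The fit was tested on simulated data.

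Loci joining several genes were not counted as protein-coding loci (345 held such a gene), 24 gene names stored as dates were set back, and 115 loci sharing a symbol were left out of list counts. Text genes were the 15 largest rises and falls called and moving one way in all pairs, up to 4 called and the 2 most abundant uncalled genes of each list, and the 3 smallest interaction p among called genes. The genes, lists and tests were chosen with earlier results of these data known. Alternatives changed the block, pseudocount, limit on low values, scaling, variance model, biotypes and libraries used. Some results are not reported here.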

Additional observations from a re-analysis of the deposited data

How the results depend on the processing

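In each of the 17 alternatives, 0 of the called genes still tested there changed direction, while the number of calls depended on the alternative. All 169 moved the same way in each of the 3 female pairs. Only quantile and upper quartile scaling could therefore have changed a direction. Without the replicate block 70 loci were called (65 higher, 5 lower), and 63 of these were among the 169. With no limit on low values 80 were called (68 higher, 12 lower), and with protein-coding loci alone in the fit 375 (236 higher, 139 lower). Female libraries alone, with the pairs kept, gave 11 calls (11 higher, 0 lower), of which 6 were in the glucocorticoid-induced list. Leaving out a female pair gave 6 to 19 calls (5 to 17 higher, 1 to 2 lower, 3 to 7 in that list), and leaving out a male pair gave 38 to 95 (32 to 80 higher, 6 to 15 lower, 9 to 16 in that list). Fewer libraries entered these fits, and the cause of the drops was not tested. The share of higher calls was 71.6%, became 92.9% without the block, 85.0% with no limit on low values and 62.9% with protein-coding loci alone, and was 74.9% and 68.5% with quantile and upper quartile scaling. The sex difference had 0 calls, and 1 without the block and 1 with a pseudocount of 0.1. With pseudocounts of 0.1 and 0.5, a mean of at least 5 FPKM, either scaling or a robust variance model the calls numbered 154 to 176, and with both female means at 1 FPKM or more, an alternative added after seeing the data, 132. FPKM give no depth, so the limit set by read numbers is unknown.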

Other observations

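Outside the protein-coding loci described above, 21 of 4271 tested loci were called in the same limma fit, of which 4 have a female group listed wholly at 0. Jun, a subunit of the AP-1 factor, is joined in the table with the transcript Gm12703, and this locus was lower (log2 fold change -0.60), as was the locus of the let-7 precursors Mirlet7b and Mirlet7c-2 (-0.51). Loci of Zhx3 with its antisense transcript (0.75) and of the stress ligands H60b, Raet1d and Raet1e (0.84) were higher. The long noncoding RNAs Gm26723 (0.63) and Gm26880 (0.60) were higher and Gm26649 (-0.71) and Gm26803 (-0.80) lower. The 7SK RNA, Rn7sk, was listed at 86677, 91178 and 54643 FPKM in the female vehicle libraries and at 0 in all 3 dexamethasone libraries. Male libraries were listed likewise, at 119415, 59637 and 57975 FPKM with vehicle and at 0 in all 3 with dexamethasone. Whether these exact zeros reflect the RNA itself or the way the locus was quantified was not tested, and no fold is given.

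Some glucocorticoid-linked genes did not enter the counts. Cebpd, a C/EBP transcription factor gene carried in the table under a pseudogene biotype, stood at 9.54, 4.00 and 4.94 FPKM with vehicle and at 33.5, 24.4 and 17.2 FPKM with dexamethasone (log2 fold change 1.89, SE 0.29, limma adjusted p = 0.0564). Lcn2, the secreted iron-siderophore binder lipocalin-2, was listed at 0 in the 3 vehicle libraries and at 4.47, 2.14 and 1.59 FPKM with dexamethasone.

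Sizeable differences also stood among uncalled protein-coding genes: 29 had a log2 fold change of at least 1 and 7 of at most -1, and the groups did not overlap for 20 and 6 of them. Positive examples are Arl4d, a relative of Arl4a (1.89, limma adjusted p = 0.0551), and the catenin relative Arvcf (1.56, adjusted p = 0.0511). Negative ones are the Ras-like Rerg (-1.26, adjusted p = 0.0662), the Wnt ligand Wnt7a (-1.12, adjusted p = 0.121) and the secretogranin Scg2 (-1.07, adjusted p = 0.0577). These genes were chosen after their values were seen.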
